A study of Homo sapiens with 6 samples.

Results

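The 37 genes of the human mitochondrial chromosome, 13 messenger RNAs (mRNAs), 2 ribosomal RNAs (rRNAs) and 22 transfer RNAs (tRNAs), were followed in total RNA from Cal27 cells, an established line grown from a tongue squamous cell cancer. They are the rows of a raw count table whose Ensembl identifier, without its version, has a symbol starting with MT- in GENCODE release 44. All 37 were found among 57820 rows, and the version of the identifier was the same in the table and in that release for all 37. The study put cornulin (CRNN), a protein of squamous epithelium, into these cells with a lentivirus and compared them with cells given a GFP vector and with untreated wild-type cells, in 2 libraries per group. Per the labels, both transduced groups were taken 48 h after transduction in 8 µg/ml polybrene. No harvest time or polybrene is given for the untreated cells, so in a comparison with them transduction, polybrene and time cannot be told apart. The labels call the libraries biological replicates and give all 6 batch 1. They name no promoter for the inserts and do not say whether the transduced cells were selected.

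The mitochondrial chromosome is a small circle that is read from both strands as long precursor RNAs. The tRNAs lie between the other genes, and cutting them out releases the mRNAs and rRNAs. The mRNAs encode core subunits of respiratory complexes I, III and IV and of ATP synthase (complex V), whose other subunits come from the nucleus. The rRNAs, MT-RNR1 (12S) and MT-RNR2 (16S), build the small and large subunits of the mitochondrial ribosome. Of the genes, 28 are read in the orientation of the heavy-strand transcript and 9 from the light strand, among them MT-ND6, MT-TP and MT-TE.

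Library totals ran from 11817105 (GFP replicate 2) to 28041227 counts, so that 3 counts stood for between 0.114 and 0.239 CPM (counts scaled to 1e+06 per library with TMM factors). CRNN itself had 962 and 1027 CPM in the CRNN libraries and between 2.08 and 3.51 CPM in the 4 others. All 12 squamous keratinocyte markers had at least 10 counts in every library, with a summed level of 5004 to 6625 CPM. Fibroblast markers summed to between 3.96 and 9.32 CPM and immune markers to between 7.13 and 11.3 CPM. The 3 endothelial markers found summed to between 8.04 and 13.95 CPM in 5 libraries and to 52.9 CPM in untreated replicate 1, nearly all of it CDH5. That library stands apart more widely: with untreated replicate 2 left out, edgeR called 957 genes in CRNN against untreated cells, in place of 1.

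Few of the tRNA genes had counts. Of 22 tRNAs, 18 were at 0 in every library, MT-TF, MT-TC and MT-TY had 25 counts together over the 6 libraries, and MT-TP, the proline tRNA, had 5348 of the 5373 tRNA counts (99.5%). The sequences of MT-TP and of a pair of tRNAs with almost no counts are shown, with their places on the chromosome. They are given as DNA from the GENCODE 44 transcripts, with the anticodon in capitals.
MT-TP: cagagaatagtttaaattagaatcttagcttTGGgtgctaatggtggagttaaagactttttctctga
MT-TF: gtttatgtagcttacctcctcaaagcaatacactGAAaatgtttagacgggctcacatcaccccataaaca
MT-TE: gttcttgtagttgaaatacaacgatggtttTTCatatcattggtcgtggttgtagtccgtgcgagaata
MT-TP (68 bases; GRCh38 chrM:15956-16023, minus strand) lies 2 bases from MT-TT and, on the other side, beside the control region. Around the circle, 1122 bases without an annotated gene separate it from MT-TF (71 bases; chrM:577-647, plus strand), which thus borders the same stretch. Whether the surroundings bear on the counts was not tested. MT-TF, the phenylalanine tRNA, touches MT-RNR1 with no base between them and had 2 and 4 counts in CRNN replicate 1 and untreated replicate 1 and 0 in the other libraries. MT-TE, the glutamate tRNA (69 bases; chrM:14674-14742, minus strand), touches MT-ND6 and lies 4 bases from MT-CYB, and had 0 counts. The other 20 tRNAs, MT-TE among them, lie within 31 bases of an annotated gene on both sides. A count of 0 allows a level of up to 0.114 to 0.239 CPM in these libraries, for counting error only.

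The levels of MT-TP, in CPM, were 46.5 and 33.3 in CRNN, 41.5 and 57.5 in GFP cells, and 33.6 and 46.8 in untreated cells. The groups overlapped. Its log2 fold change was -0.31 (SE 0.31, n = 2 per group) for CRNN against GFP and -0.0098 (SE 0.31) for CRNN against untreated cells, with adjusted p = 0.999 for each by edgeR's quasi-likelihood test.

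The 2 rRNAs held nearly all mitochondrial counts. Together they took 27.7% and 24.9% of the counts in CRNN cells, 27.8% and 27.6% in GFP cells, and 21.6% and 24.6% in untreated cells. The 13 mRNAs took 1.00% and 0.639% in CRNN, 1.49% and 1.27% in GFP cells, and 0.945% and 1.27% in untreated cells. The exact (Clopper-Pearson) 95% intervals of these shares were narrow, as in 0.636% to 0.643% for the mRNAs in CRNN replicate 2, and cover counting error only. The mRNA share was lower in both CRNN libraries than in both GFP libraries, while untreated replicate 1 lay below CRNN replicate 1. As group means the mRNAs took 0.822% ± 0.258 in CRNN, 1.38% ± 0.156 in GFP and 1.11% ± 0.229 in untreated cells (SD, n = 2 each). In bulk RNA a lower share cannot tell fewer mitochondrial transcripts per cell from more of the other transcripts.

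**Figure D1:**
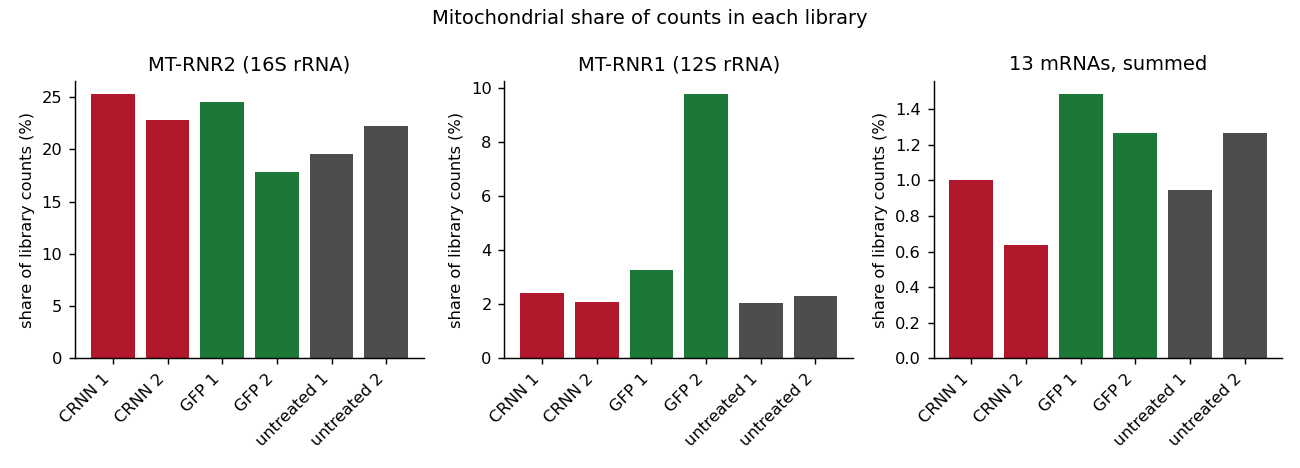
Percent of each library's counts (vertical axes, from 0) held by MT-RNR2, by MT-RNR1 and by the 13 mRNAs together, with 1 bar per library and colours for CRNN, GFP and untreated cells. GFP replicate 2 has 9.76% of its counts in MT-RNR1, against 2.05% to 3.25% in the other 5 libraries, and CRNN replicate 2 has the lowest mRNA share.

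The division of the counts between the rRNAs was unlike the others in 1 library. MT-RNR1 (ENSG00000211459.2; GRCh38 chrM:648-1601) had 24903 and 20235 CPM in CRNN, 33028 and 91917 CPM in GFP cells, and 21914 and 22470 CPM in untreated cells. MT-RNR2 (ENSG00000210082.2; chrM:1671-3229) had 263259 and 220756 CPM in CRNN, 248865 and 168336 CPM in GFP cells, and 209024 and 216192 CPM in untreated cells. GFP replicate 2 was thus the highest library for MT-RNR1 and the lowest for MT-RNR2, and it is also the library with the fewest counts. The counts of MT-RNR2 were 10.6 and 10.9 times those of MT-RNR1 in CRNN, 7.54 and 1.83 times in GFP cells, and 9.54 and 9.62 times in untreated cells. The sum of both took nearly the same share of the counts in the GFP libraries, as given above.

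The fitted differences of MT-RNR1 in the comparisons with GFP cells were smaller without that library and kept their sign. For MT-RNR1 both CRNN libraries lay below both GFP libraries, as they did for 18.7% of all genes. Both GFP libraries lay above both untreated libraries, as they did for 16.2% of all genes. For CRNN against GFP, MT-RNR1 had a log2 fold change of -1.47 (SE 0.47, adjusted p = 0.999, edgeR), and -0.53 without GFP replicate 2. For GFP against untreated cells it had 1.49 (SE 0.47, adjusted p = 0.711), and 0.55 without GFP replicate 2. MT-RNR2 had 0.21 (SE 0.35, adjusted p = 0.999) for CRNN against GFP, and -0.017 without GFP replicate 2. In CRNN against untreated cells MT-RNR1 had 0.024 (SE 0.46) and MT-RNR2 had 0.19 (SE 0.35), with adjusted p of 0.999 and 0.992. Both CRNN libraries lay above both untreated libraries for MT-RNR2, as they did for 18.7% of all genes. What sets GFP replicate 2 apart was not tested.

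The mRNAs differed widely in level among themselves. Per length, MT-CO3 (a subunit of complex IV, cytochrome c oxidase) stood highest, at 3988 to 8376 CPM per kb over the 6 libraries. MT-CO1 and MT-CO2, the catalytic subunits of the same enzyme, followed at 873 to 2536 and 1160 to 2277 CPM per kb, and their ranges overlapped. MT-ND3 of complex I (NADH dehydrogenase) had 419 to 737, MT-ATP6 of ATP synthase 215 to 671, and MT-CYB of complex III 148 to 527 CPM per kb. The 7 others lay lower on average, down to MT-ND6, the single mRNA of the light strand, at 13.5 to 86.2 CPM per kb. For scale, MT-RNR2 had 107977 to 168864 CPM per kb. The 3 complex IV mRNAs held between 78.6% and 86.2% of all mRNA counts in every library, and the 7 complex I mRNAs between 8.70% and 13.2%.

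**Figure D2:**
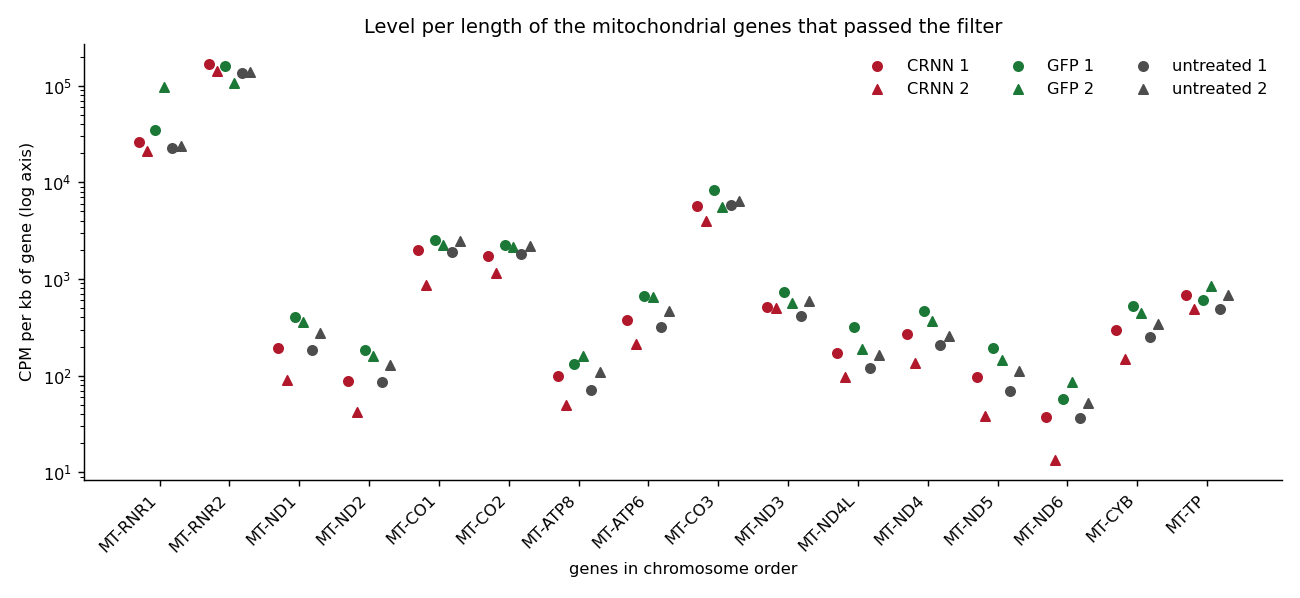
Level of the 2 rRNAs, the 13 mRNAs and MT-TP in CPM per kb of gene (vertical axis, log scale), in the order of the genes on the chromosome, with 1 point per library (circle for replicate 1, triangle for replicate 2, colour for the group). The rRNAs lie far above the mRNAs, MT-CO3 is the highest mRNA, and CRNN replicate 2 is the lowest library for each of the 13 mRNAs but MT-ND3.

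Genes that are cut from a shared precursor, or that overlap, did not have the same level. MT-ATP8 and MT-ATP6 are read in different frames from 1 RNA and share the bases below, in which the capitals mark the start codon of MT-ATP6 and the stop codon of MT-ATP8. MT-ND4L and MT-ND4 of complex I also share 1 RNA, and in the end of MT-ND4L the bases shared with MT-ND4 are in capitals.
MT-ATP8 and MT-ATP6: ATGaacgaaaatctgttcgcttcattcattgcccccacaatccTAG
MT-ND4L and MT-ND4: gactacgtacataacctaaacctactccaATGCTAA
The overlaps are 46 and 7 bases long, and the sources used here do not say how reads in them were counted. MT-ND4 had between 1.40 and 1.93 times the level per length of MT-ND4L. MT-CO3, which follows MT-ATP6 directly with 1 shared base, had between 8.65 (GFP replicate 2) and 18.5 times (CRNN replicate 2) the level per length of MT-ATP6.

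Near-identical copies of some members lie in the nuclear chromosomes, and reads from the members may have been shared with them or left out. Of the 50-base words of each gene, 50.6% in MT-CO1, 46.7% in MT-ATP6, 43.6% in MT-ND2, 30.9% in MT-CO3, 29% in MT-CO2, 22.1% in MT-ND1, 20% in MT-ND6 and 8.23% in MT-ATP8 occur letter for letter in the nuclear chromosomes of GRCh38. No such word was found for MT-ND3, MT-ND4L, MT-ND4, MT-ND5 or MT-CYB. The shares were 1.77% for MT-RNR1 and 3.31% for MT-RNR2. The 5 also have nuclear copies with counts, which differ from them within every 50 bases. A copy of MT-ND4 had 143 counts over the 6 libraries, between 0.205% and 0.466% of MT-ND4. Sharing of reads that allow mismatches was not examined. Reads can be shared letter for letter between a copy and the 8 first-named mRNAs, whose levels are uncertain to that extent.

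Among 389 nuclear copies in the table, MTATP6P1, a pseudogene of MT-ATP6 (ENSG00000248527.1; GRCh38 chr1:633696-634376), had the most counts. Over 681 aligned bases it differed from MT-ATP6 at 10 (98.5% identity). The 60 bases that hold the most differences, bases 116 to 175 of MT-ATP6 counted from its start, show how few letters separate the gene and its copy (differing bases in capitals).
MT-ATP6: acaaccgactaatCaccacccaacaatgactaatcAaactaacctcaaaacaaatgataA
MTATP6P1: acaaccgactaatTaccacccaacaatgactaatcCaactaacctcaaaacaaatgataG
MTATP6P1 had 782 and 414 counts in CRNN, 1153 and 876 in GFP cells, and 759 and 1025 in untreated cells. As a share of the MT-ATP6 counts these were 13.8% and 12.6%, 13.1% and 15.8%, and 13.4% and 12.99%. The copy thus had a similar share of its member in all 6 libraries. MTCO3P12 and MTCO1P12, with the next highest counts, had between 0.277% and 0.464% of MT-CO3 and between 0.293% and 0.522% of MT-CO1. The 389 copies together had between 0.714% and 0.974% as many counts as the 13 mRNAs.

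CRNN cells were compared with GFP cells to separate the insert from the transduction. All 13 mRNAs had a negative log2 fold change, with a median of -1.05 against -0.0017 over all 16396 genes tested. None passed at an adjusted p under 0.05 by edgeR, where 0.0183% of all genes did, or by DESeq2 or limma-voom. At an unadjusted p under 0.05, 9 of the 13 were lower (2.9% of all genes), and in 12 of 13 both CRNN libraries lay below both GFP libraries (18.7% of all genes). Members are cut from shared precursors and so do not count as separate observations.

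By the median of each complex, the complex I mRNAs were furthest from 0, at -1.33, with single values from -1.51 to -0.36; the complexes were not compared by a test. MT-ND1 (ENSG00000198888.2; GRCh38 chrM:3307-4262) had 187 and 85.8 CPM in CRNN, 385 and 342 CPM in GFP cells, and 175 and 263 CPM in untreated cells. Both GFP libraries were above the 4 others. Its log2 fold change for CRNN against GFP was -1.42 (SE 0.40, adjusted p = 0.999, edgeR), and without CRNN replicate 2 it was -0.96. MT-ND5 (chrM:12337-14148) had 176 and 68.5 CPM in CRNN, 353 and 260.4 CPM in GFP cells, and 126 and 200.3 CPM in untreated cells, a log2 fold change of -1.33 (SE 0.45, adjusted p = 0.999). MT-ND2 was at -1.41, MT-ND4 at -1.05 and MT-ND4L at -0.91, while MT-ND3, with 179 and 173 CPM in CRNN against 255 and 195 CPM in GFP, was at -0.36 (SE 0.29), the smallest difference of the 13.

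MT-ND6 of the light strand (ENSG00000198695.2; chrM:14149-14673) had the largest difference. It had 19.4 and 7.08 CPM in CRNN (429 and 159 counts), 30.03 and 45.3 CPM in GFP (579 and 568 counts), and 19.0 and 27.4 CPM in untreated cells (498 and 685 counts). The log2 fold change for CRNN against GFP was -1.51 (SE 0.47, adjusted p = 0.999, edgeR), and -0.95 without CRNN replicate 2. For each 1000 counts of the 12 heavy-strand mRNAs, MT-ND6 had 1.86 and 1.15 in CRNN, 2.00 and 3.81 in GFP cells, and 1.88 and 2.23 in untreated cells. On this scale CRNN replicate 2 was lowest and GFP replicate 2 highest, and CRNN replicate 1 lay close to untreated replicate 1. The strand setting of the counting is not given in the sources used here, so reads of MT-ND6 cannot be told apart from those of the opposite strand.

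The mRNAs of the other complexes were also lower in CRNN than in GFP, those of complex IV by less. MT-CYB had 340.5 and 169 CPM in CRNN, 602 and 513 CPM in GFP cells, and 285 and 393 CPM in untreated cells, with a log2 fold change of -1.13 (SE 0.37, adjusted p = 0.999, edgeR). MT-ATP6 was at -1.16 (SE 0.35) and MT-ATP8 at -0.97 (SE 0.38). MT-CO1 (chrM:5904-7445) had 3069 and 1346 CPM in CRNN, 3910 and 3482 CPM in GFP cells, and 2930 and 3812 CPM in untreated cells. Its log2 fold change was -0.74 (SE 0.40), or -0.26 without CRNN replicate 2. MT-CO2 was at -0.61 (SE 0.31) and MT-CO3 at -0.52 (SE 0.34), the last being the mRNA whose CRNN and GFP libraries overlapped. Complex I mRNAs took 10.3% and 9.59% of the mRNA counts in CRNN, 12.97% and 13.2% in GFP cells, and 8.70% and 9.99% in untreated cells, so that the GFP libraries stood apart from the 4 others in this share. Across the 12 heavy-strand mRNAs, which share precursors and libraries, the log2 fold change had Spearman rho = 0.636 with the mean level per length, as a description. With the position on the chromosome rho was 0.154. The same values were 0.028 and 0.608 for CRNN against untreated cells, and -0.643 and 0.524 for GFP against untreated cells. In the same order of comparisons, rho was -0.036, -0.58 and -0.573 with the share of 50-base words that have a nuclear copy. With length it was -0.371, -0.524 and 0.133, and with GC content -0.119, -0.462 and -0.133.

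**Figure D3:**
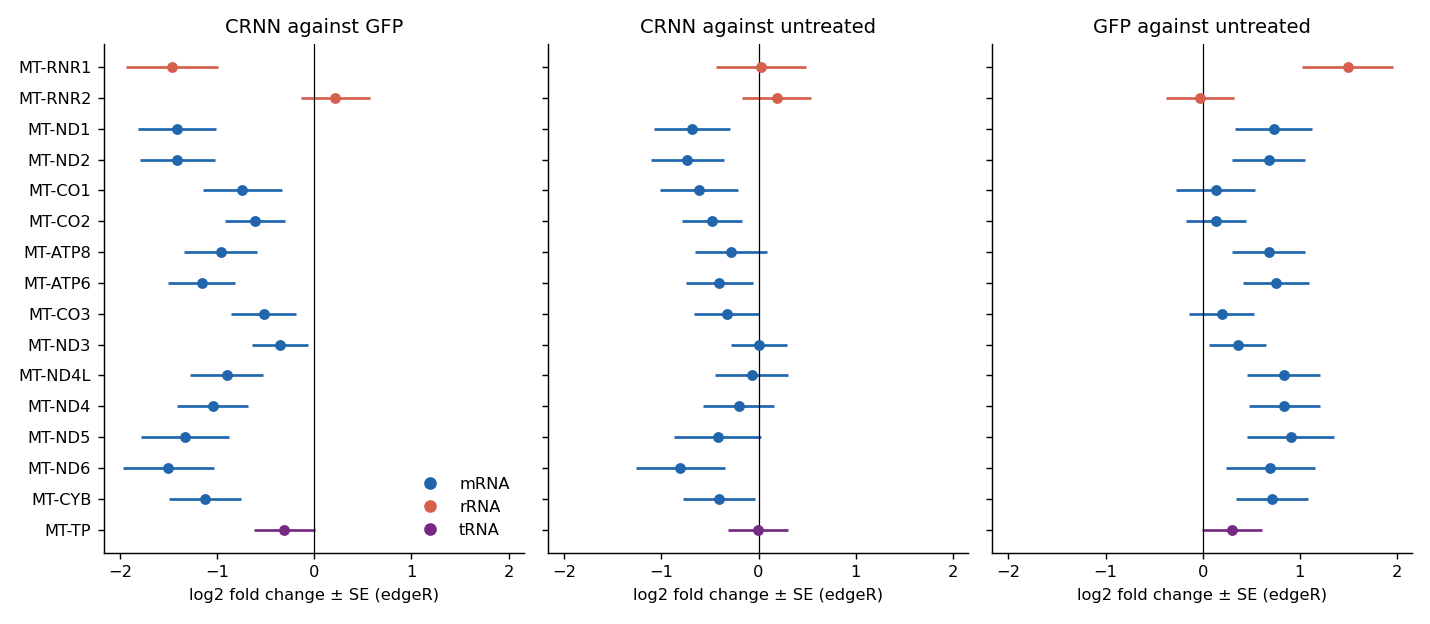
Log2 fold change (horizontal axes) with its SE from edgeR for 16 mitochondrial genes in chromosome order, in the comparisons of CRNN with GFP, CRNN with untreated cells and GFP with untreated cells, coloured by class. All 13 mRNAs lie below 0 for CRNN against GFP and above 0 for GFP against untreated cells, 2 comparisons that share the GFP libraries.

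The CRNN libraries were unlike each other for the mRNAs. In CRNN replicate 1 the 13 mRNAs had between 1.04 (MT-ND3) and 2.74 times (MT-ND6) the level of replicate 2, with a median of 1.99. The rRNAs differed less, by 1.23 times for MT-RNR1 and 1.19 times for MT-RNR2. Replicate 1 had the higher level for 11 of 13 mRNAs in GFP (median ratio 1.16) and for 0 of 13 in untreated cells (median ratio 0.705). Without CRNN replicate 2 the median log2 fold change of the mRNAs for CRNN against GFP was -0.63 and 0 of 13 had an unadjusted p under 0.05, where 0.449% of all genes were lower at that p. Without CRNN replicate 1 the median was -1.59. Without GFP replicate 1, 4 had an unadjusted p under 0.05, where 2.82% of all genes were lower. All 13 stayed negative with each library left out in turn.

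Ratios within a library do not depend on the scaling between libraries. Those that hold the rRNAs can still depend on how much rRNA was removed from each library. Such a step is not given in the sources used here, and whether it bears on these ratios was not tested. The rRNAs had 27.6 and 38.97 times the counts of the mRNAs in CRNN, 18.7 and 21.8 times in GFP cells, and 22.9 and 19.4 times in untreated cells. Both CRNN libraries had a higher ratio than the 4 others. As means these were 33.3 ± 8.05 in CRNN, 20.3 ± 2.22 in GFP and 21.1 ± 2.48 in untreated cells (SD, n = 2 each). With 2 libraries against 2, an exact two-sided permutation test cannot give a p below 0.333, so none was run on these ratios.

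**Figure D4:**
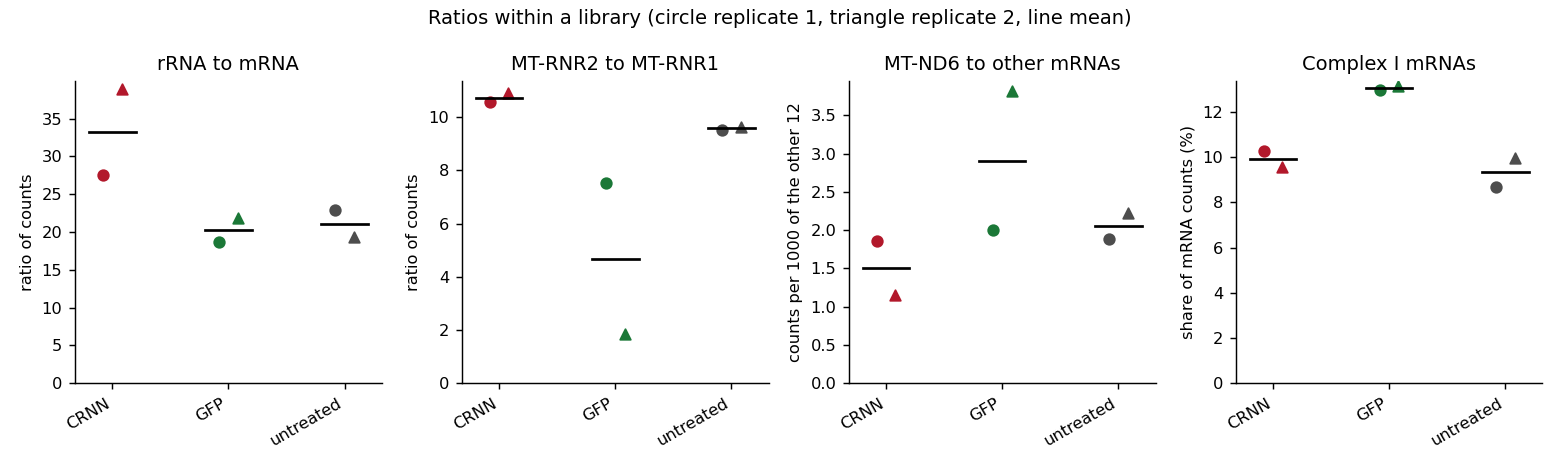
Ratios within each library for CRNN, GFP and untreated cells (horizontal axes), with a circle for replicate 1, a triangle for replicate 2 and a line at the mean; the vertical axes start at 0. The ratio of rRNA to mRNA counts is highest in the CRNN libraries, MT-RNR2 to MT-RNR1 is lowest in GFP replicate 2, and the complex I share of mRNA counts is highest in the GFP libraries.

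In the comparison of CRNN with untreated cells the mRNAs differed by less. The median log2 fold change was -0.41 against -0.0091 over all genes, and 12 of 13 were negative. By edgeR, DESeq2 and limma-voom none passed, where 0.0061% of all genes passed by edgeR, and 0 had an unadjusted p under 0.05 by any of these (by edgeR, 2.96% of all genes were lower and 1.52% higher at that p). Both CRNN libraries lay below both untreated libraries for MT-CO2 and MT-CO3 (2 of 13, against 18.4% of all genes). MT-ND6 had the largest difference, at -0.81 (SE 0.46, adjusted p = 0.989), and MT-ND2 followed at -0.73 (SE 0.38, adjusted p = 0.989). The median was -0.071 without CRNN replicate 2, with 8 of 13 negative, and -0.84 without CRNN replicate 1, when 5 had an unadjusted p under 0.05, downward (1.45% of all genes). Without untreated replicate 1, 2 did (0.402% of all genes), as did 2 with no filter on low counts (2.98%). It was -0.16 without untreated replicate 2 and -0.62 without untreated replicate 1.

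GFP against untreated cells shares the GFP libraries with CRNN against GFP and the untreated libraries with CRNN against untreated cells. All 13 mRNAs were positive, with a median of 0.70 against -0.013 over all genes. None passed by edgeR, DESeq2 or limma-voom, where 0% of all genes did by edgeR. By edgeR 1 of 13, MT-ND4, had an unadjusted p under 0.05 upward (4.03% of all genes). By DESeq2 3 did (3.49% of all genes) and by limma-voom 2 did (4.54%). Both GFP libraries lay above both untreated libraries for 9 of 13 (16.2% of all genes). MT-ND4 (chrM:10760-12137) had 645 and 501 CPM in GFP against 289 and 351 CPM in untreated cells, a log2 fold change of 0.84 (SE 0.36, adjusted p = 0.711, edgeR). MT-ND5 was at 0.91 (SE 0.45), and the 3 complex IV mRNAs lay between 0.13 and 0.20. Without untreated replicate 1 the median was 0.44 and MT-CO1 and MT-CO2 were negative, and without untreated replicate 2 it was 0.98 and 6 had an unadjusted p under 0.05, where 11% of all genes were higher at that p.

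Nuclear genes of the same machinery had medians near or above 0 for CRNN against GFP. Of 52 nuclear subunits of oxidative phosphorylation, 49 had a positive log2 fold change for CRNN against GFP, with a median of 0.31, and 0 passed in either direction (edgeR). Of all 16396 genes 8177 were positive. An unadjusted p under 0.05, upward, was found for 3 of the 52, against 1.49% of all genes. ATP5PD, a subunit of ATP synthase, had 64.96 and 71.7 CPM in CRNN against 47.5 and 39.6 CPM in GFP, a log2 fold change of 0.65 (SE 0.26, adjusted p = 0.999). NDUFB5, a complex I subunit, was at 0.63 (SE 0.27), and SDHD, a subunit of complex II, which holds no mitochondrially encoded protein, at 0.66 (SE 0.29). Of 80 genes of the mitochondrial ribosome 71 were positive, with a median of 0.24 and 0 at an unadjusted p under 0.05, among them MRPL50 at 0.51 (SE 0.26).

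Genes that make and process mitochondrial RNA gave small values. The 10 genes of mitochondrial transcription had a median of 0.044 for CRNN against GFP, with 5 positive and 5 negative. TFAM, which packs mitochondrial DNA and starts its transcription, had 58.2 and 69.2 CPM in CRNN, 44.8 and 69.8 CPM in GFP cells, and 76.5 and 68.5 CPM in untreated cells (log2 fold change for CRNN against GFP 0.15, SE 0.29). Of 32 tested genes of RNA processing and stability 26 were positive, with a median of 0.16. FASTKD2, an RNA-binding protein of mitochondrial ribosome assembly, was at 0.54 (SE 0.26), and SLIRP, which stabilises mitochondrial mRNAs, at 0.42 (SE 0.26). The 18 genes of mitochondrial DNA replication and maintenance had a median of 0.084, with SSBP1, the single-strand binding protein, at 0.47 (SE 0.25). The 9 biogenesis regulators had a median of 0.046, and PPARGC1A had 6.70 and 8.68 CPM in CRNN, 1.504 and 8.37 CPM in GFP cells, and 1.75 and 8.20 CPM in untreated cells. No gene of these 4 lists passed in CRNN against GFP by edgeR, and 0 had an unadjusted p under 0.05.

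For GFP against untreated cells the nuclear lists lay on the other side of 0 from the mitochondrial mRNAs. The median was -0.27 for the nuclear oxidative phosphorylation subunits (46 of 52 negative), -0.23 for the mitochondrial ribosome (65 of 80 negative) and -0.24 for RNA processing and stability (29 of 32 negative). It was -0.24 for transcription (6 of 10 negative), -0.20 for DNA maintenance (11 of 18) and -0.12 for the biogenesis regulators (7 of 9). Over all 16396 genes the median was -0.013, with 8378 negative. No gene of the 6 lists passed in this comparison by edgeR. At an unadjusted p under 0.05, all downward, were 3 of 80 mitochondrial ribosome genes and 2 of 32 RNA processing genes. So were 2 of 9 biogenesis regulators, 1 of 52 oxidative phosphorylation subunits, 1 of 18 DNA maintenance genes and 0 of 10 transcription genes. Of all genes 2.9% were lower at that p. For CRNN against untreated cells the medians of the 6 lists lay between -0.25 and 0.054, and none of their genes passed. Only 1 gene, of the 9 biogenesis regulators, had an unadjusted p under 0.05, downward, against 2.96% of all genes. The difference between the nuclear lists and the mitochondrial mRNAs was not tested.

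**Figure D5:**
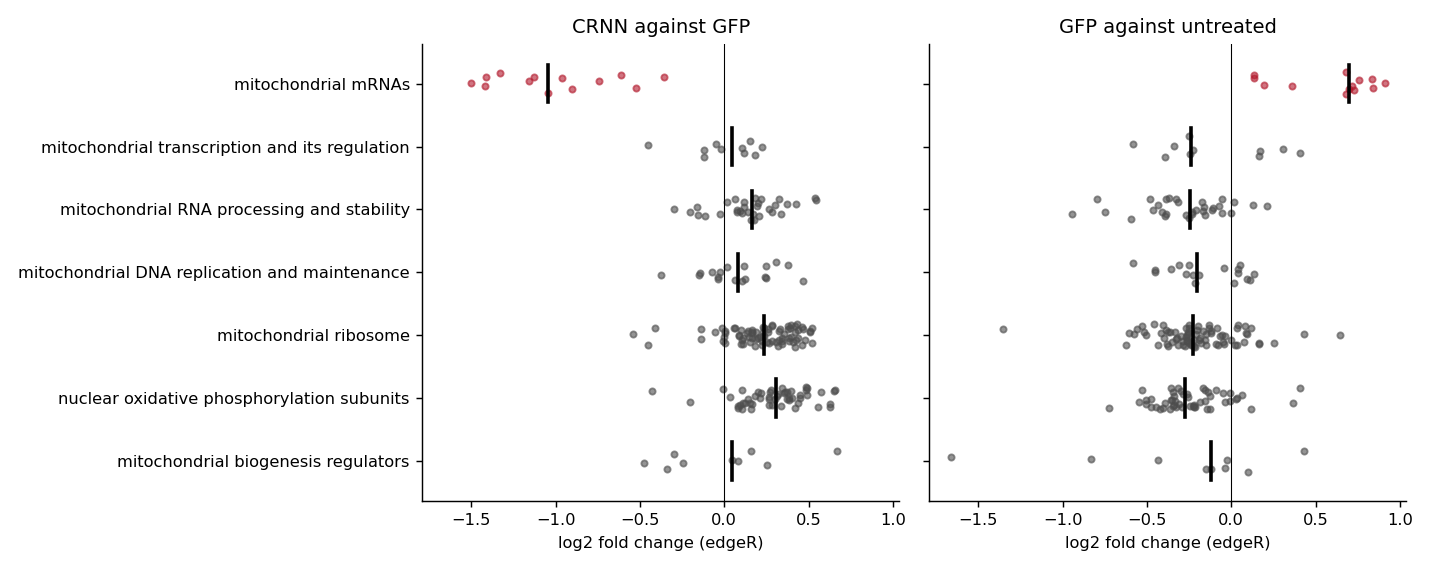
Log2 fold changes (horizontal axes) of the 13 mitochondrial mRNAs and of the tested genes of 6 nuclear lists, for CRNN against GFP and for GFP against untreated cells, with 1 point per gene and a bar at each list's median. The mitochondrial mRNAs have a median of -1.05 for CRNN against GFP and 0.70 for GFP against untreated cells, and the nuclear oxidative phosphorylation subunits have 0.31 and -0.27.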

How the data were processed

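RNA of 6 Cal27 libraries was sequenced. The deposited table holds raw read counts per Ensembl gene, 1 column per library, with no normalization. Tools listed in the submitters' processing notes, without roles, were STAR 2.6, HTSeq 0.6.1, edgeR, FastQC 0.11.7 and bcl2fastq; the builds listed were hg19, GRCh37 and GRCh38. The annotation, the strand setting, an rRNA removal step and the treatment of reads with several matches are not given in the sources used here. The labels name a stranded total RNA kit.

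Names, lengths, sequences and coordinates came from GENCODE 44 (GRCh38) by identifier without version (51996 of 57820 rows named); coordinates are those of that build, not of the counting. Genes were kept by filterByExpr (minimum count 10, minimum total 15): 16396 genes, with 16 of the 37 members (13 mRNAs, 2 rRNAs, MT-TP). The edgeR fit (version 4.0.16, R 4.3.3) covered the 6 libraries (TMM, quasi-likelihood F test, no covariate), with Benjamini-Hochberg adjustment over all tested genes and a threshold of 0.05. SE is the log2 fold change divided by the square root of F. CPM used TMM-scaled library sizes, and CPM per kb divided by annotated length. The fit was also run on simulated data with less spread between libraries than these and with no outlying library. That run does not measure the error of the fit on these libraries. P-values measure the spread between these libraries only.

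Alternatives were other scalings (RLE, library totals, factors without mitochondrial rows), filters, DESeq2 1.42.0, limma-voom (limma 3.58.1), a fit of 2 groups, a replicate block, a GC and length correction (97.2% of tested genes had both), and each library left out. The replicate numbers are not stated to pair libraries. Over 11729 genes the differences between replicates had r = 0.255 for CRNN and GFP, -0.071 for CRNN and untreated, and 0.193 for GFP and untreated cells. These values cannot settle whether libraries of the same number were prepared together. The members, gene lists and tests were chosen with earlier results of these data known. All members could be named, with up to 4 genes of each list by smallest p in CRNN against GFP, and the 3 nuclear copies with most counts.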

Additional observations from a re-analysis of the deposited data

How the results depend on the processing

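No mitochondrial mRNA was called in any comparison under any of the 17 alternatives. The smallest adjusted p among the 16 tested members was 0.152 (MT-ND2) for CRNN against GFP and 0.0508 (MT-RNR1) for GFP against untreated, by edgeR. Both came with no filter on low counts, a setting in which 34 and 195 of all genes were called. For CRNN against untreated the smallest came from the fit without untreated replicate 2 and is not given. A library left alone in its group was assumed to vary like the other groups. With each library left out, the median mRNA log2 fold change ran from -1.59 to -0.63 for CRNN against GFP, from -0.84 to -0.071 for CRNN against untreated and from 0.44 to 0.98 for GFP against untreated; under the other 11 alternatives it stayed between -1.15 and -1.01, -0.51 and -0.40, and 0.65 and 0.76. With the replicate block the medians were -1.08, -0.47 and 0.69, and 9, 0 and 0 mRNAs had an unadjusted p under 0.05 by edgeR. The 9 were lower in CRNN than in GFP cells, as were 3.29% of all genes. For CRNN against untreated 3.17% of all genes were lower at that p, and for GFP against untreated 4.57% were higher. The block changed no call among the mRNAs.

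Shares depend on the denominator by construction. Over protein-coding and mitochondrial rows only, all members took 30.9% in CRNN, 32.5% in GFP and 26.7% in untreated cells. In the same order the rRNAs took 29.99%, 30.9% and 25.5%, and the mRNAs 0.941%, 1.54% and 1.22%. Over counts outside the mitochondrial rRNAs, the mRNAs took 1.12%, 1.90% and 1.44% and the tRNAs 0.00541%, 0.00706% and 0.00522%.

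Some members changed sign, and the cause was not tested. With a library left out, this held also for larger values, such as MT-ND5 at -0.42 and MT-ATP8 at -0.28 for CRNN against untreated. With no library left out, the members that changed sign had values near 0 in the main fit. For CRNN against untreated these were MT-ND3 with no filter (-0.0018), MT-RNR1 after the GC and length correction (-0.019, or -0.0055 with the replicate block) and MT-TP with the replicate block (0.016, or 0.0088 with the GC and length correction too). For GFP against untreated MT-RNR2 had 0.020 with library totals, 0.0044 with the filter of 1 CPM, 0.054 after the GC and length correction and 0.014 with the block added. With each library left out, ranges over 0 for CRNN against untreated were MT-ATP8 -0.84 to 0.11, MT-ND3 -0.22 to 0.28, MT-ND4 -0.76 to 0.19, MT-ND4L -0.54 to 0.28, MT-ND5 -1.24 to 0.090, MT-RNR1 -0.12 to 0.15 and MT-TP -0.25 to 0.25. For GFP against untreated they were MT-CO1 -0.065 to 0.32, MT-CO2 -0.019 to 0.27, MT-CO3 -0.13 to 0.43 and MT-RNR2 -0.35 to 0.21, and for CRNN against GFP MT-RNR2 ran from -0.017 to 0.53. For the 18 tRNAs at 0 the depth gives only an upper limit, and the lowest mRNA count was 159 (MT-ND6, CRNN replicate 2).

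Over all genes edgeR called 3 for CRNN against GFP, 1 for CRNN against untreated and 0 for GFP against untreated. With no filter it called 34, 152 and 195, and DESeq2 called 21, 7 and 29. With only the groups compared edgeR called 13 for CRNN against GFP, and with each library left out the counts ran from 0 to 15, 1 to 957 and 0 to 966, the highest for the comparisons with untreated cells coming without untreated replicate 2.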
